A study of Rattus norvegicus and Mus musculus with 25 samples.

Results

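The 4 libraries described here are the control arms of a pair of siRNA knockdowns in neonatal rat ventricular cardiomyocytes, primary heart muscle cells that are widely used to study cardiac growth and stress in culture. Of the 25 samples in the series, 2 are labelled si-Control_v, the control for knockdown of the Reelin receptor Vldlr, and 2 are labelled si-Control_t, the control for knockdown of the secreted matrix protein Thbs1. Both groups carried the same label description: ventricular cells of 1-day-old SD rats, a control siRNA at 50 nM, and 60 h of exposure. The labels name no target or sequence for the control siRNA, and they do not say whether the siRNA, the cell preparation or the day was shared between the groups, whether cells of several pups were pooled, or whether a group's 2 libraries were grown as independent cultures. The comparison therefore asks how far apart a pair of nominally equal control groups lay. Other groups of the series are used only beside it. Those compared with a control group are si-Vldlr and si-Thbs1, with the same concentration and time, and cells given PBS for 48 h without siRNA. Libraries labelled Reelin (48 h) and Vldlr OE (72 h), for which no siRNA is given, were fitted together with si-Control_v, si-Vldlr and PBS. They are also shown in the plot of gene list medians by library.

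Each library was deposited as CPM, read counts scaled so that all genes of a library sum to 1000000. The si-Control_v libraries are columns of a table of 10 labelled libraries and the si-Control_t libraries are columns of a separate table of 4. Because each control group lies wholly within 1 table, a difference between the groups and a difference between the tables cannot be told apart, and no p-value was computed across them. A gene entered the comparison when its CPM was at least 1 in 2 of the 4 libraries. Of the 28905 genes with a unique symbol in both tables, 13501 passed, of which 98 passed only through si-Control_v and 50 only through si-Control_t; these had to differ, and 26 and 9 of them are among the genes called below. Differences are of mean log2(CPM + 1), si-Control_t minus si-Control_v, a scale that understates changes of low genes. A gene is called here when both libraries of a group lay above both of the other and the difference was at least 1, that is 2-fold. The deposited values do not give the number of sequenced fragments per library, so counting error is unknown and the spread between replicates is the only error available.

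Control siRNAs are double-stranded RNA delivered into cells to separate the effect of losing a target from that of the transfection itself. Cells read foreign double-stranded RNA through cytoplasmic sensors and Toll-like receptors, which raise type I interferon; the interferon in turn acts through STAT transcription factors and IRF9 on a short promoter element, the interferon-stimulated response element (ISRE). Cultured neonatal heart cells also sit on several other axes on which preparations can differ: how many cells still divide, how far the fetal and stress genes Nppa, Nppb and Acta1 are on, how mature the calcium handling and fat oxidation are, and how many non-muscle cells remain after pre-plating, the step that removes quickly attaching cells. Mitotic genes are often controlled through the cell cycle genes homology region (CHR), and several muscle and cytoskeletal genes through the CArG box bound by serum response factor.

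The promoters of 8 genes from these groups are shown first, as examples of elements that members of these gene groups carry, and each was taken from the larger differences of its list. RefSeq promoter records on build GRCr8 were matched by symbol, and the 250 bases before the annotated start are printed in gene orientation, 5′ to 3′, with the motif in capitals. The search covered both strands for the ISRE as GAAANNGAAA, for the CHR as TTTGAA and for the CArG box in its standard form. A run such as TTTGAAA can contribute to both an ISRE and a CHR match, and each motif was counted separately. The first 3 genes, which encode antiviral proteins, carry an ISRE and had differences of 0.84, 0.95 and 0.99 toward si-Control_t, none of them called. Ifit3 (chr1:241527076-241527325, plus strand) has it 44 bases before the start, Oas1a (chr12:41330216-41330465, plus strand) has overlapping copies at 41 and 35, and Rsad2 (chr6:48788121-48788370, minus strand) has it at 147.
Ifit3: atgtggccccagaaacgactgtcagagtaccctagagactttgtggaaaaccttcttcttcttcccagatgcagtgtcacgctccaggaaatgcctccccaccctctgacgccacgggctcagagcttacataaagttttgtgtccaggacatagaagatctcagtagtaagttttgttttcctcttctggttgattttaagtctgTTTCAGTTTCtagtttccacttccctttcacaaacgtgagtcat
Oas1a: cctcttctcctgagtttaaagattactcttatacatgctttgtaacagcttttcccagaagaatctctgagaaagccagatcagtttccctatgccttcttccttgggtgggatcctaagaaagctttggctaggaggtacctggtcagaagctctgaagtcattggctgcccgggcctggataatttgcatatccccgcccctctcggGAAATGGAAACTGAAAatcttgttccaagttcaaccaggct
Rsad2: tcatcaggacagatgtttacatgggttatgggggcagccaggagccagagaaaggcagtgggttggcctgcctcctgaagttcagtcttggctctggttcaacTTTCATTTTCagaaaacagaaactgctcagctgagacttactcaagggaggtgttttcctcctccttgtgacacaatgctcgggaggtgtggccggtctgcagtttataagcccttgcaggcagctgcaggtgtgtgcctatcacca

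The next 3 genes encode cytokinesis proteins, carry a CHR and were called lower in si-Control_t. Anln (chr8:29197514-29197763, minus strand), which encodes the ring scaffold anillin, has matches on opposite strands at 31 and 24 bases before the start. Prc1 (chr1:143659231-143659480, plus strand), a microtubule crosslinker of the central spindle, has a match at 18, and the kinesin gene Kif20b (chr1:241840766-241841015, plus strand) has a match at 116.
Anln: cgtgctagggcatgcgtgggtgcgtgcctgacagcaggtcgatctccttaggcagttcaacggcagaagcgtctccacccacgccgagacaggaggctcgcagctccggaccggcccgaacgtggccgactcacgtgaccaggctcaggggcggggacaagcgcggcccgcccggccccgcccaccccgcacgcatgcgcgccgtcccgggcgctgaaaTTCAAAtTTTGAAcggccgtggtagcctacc
Prc1: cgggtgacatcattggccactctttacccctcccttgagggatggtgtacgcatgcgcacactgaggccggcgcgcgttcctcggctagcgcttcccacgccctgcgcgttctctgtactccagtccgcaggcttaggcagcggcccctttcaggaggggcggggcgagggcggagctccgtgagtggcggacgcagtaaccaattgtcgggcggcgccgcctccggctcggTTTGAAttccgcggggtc
Kif20b: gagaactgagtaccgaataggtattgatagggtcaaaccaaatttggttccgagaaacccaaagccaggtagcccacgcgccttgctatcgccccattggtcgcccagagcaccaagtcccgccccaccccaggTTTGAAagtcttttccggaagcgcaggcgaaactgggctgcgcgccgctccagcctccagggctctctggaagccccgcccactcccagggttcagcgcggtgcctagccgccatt

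The last 2 carry a CArG box and were also called lower. Acta1 (chr19:68784195-68784444, minus strand), the skeletal alpha-actin gene that is expressed in fetal and stressed heart muscle, has it 94 bases before the start. Fhl1 (chrX:139638246-139638495, plus strand), which encodes a LIM-domain protein of the stretch response, has it at 102.
Acta1: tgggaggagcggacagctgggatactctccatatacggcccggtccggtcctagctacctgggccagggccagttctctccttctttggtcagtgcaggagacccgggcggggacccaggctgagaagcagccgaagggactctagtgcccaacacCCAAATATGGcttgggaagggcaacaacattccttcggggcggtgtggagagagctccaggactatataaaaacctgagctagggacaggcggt
Fhl1: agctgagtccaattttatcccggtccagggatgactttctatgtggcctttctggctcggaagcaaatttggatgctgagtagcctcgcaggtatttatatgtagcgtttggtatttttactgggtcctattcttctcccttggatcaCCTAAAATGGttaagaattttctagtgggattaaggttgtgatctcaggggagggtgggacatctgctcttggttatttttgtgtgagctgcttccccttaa

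Among the interferon-stimulated genes with a promoter record, 23 of 36 held an ISRE in this window, against 3.61% of 27457 genes with a record and 2.81% of the 9643 that were also in the comparison. Of the mitosis and cytokinesis genes, 15 of 31 held a CHR, against 17.2% of all and 10.8% of those compared. A CArG box was found for 3 of 10 natriuretic peptide and stress genes, namely Acta1, Fhl1 and Fhl2, against 1.62% and 1.31%. Fhl2 differed by only -0.11. The box was also found for 5 of 20 immediate early and 4 of 20 sarcomere genes, but for 0 of 8 smooth muscle and pericyte markers. A match describes letters in a window and was not tested as a site.

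The libraries did not fall into 2 clean groups. Replicates of si-Control_v differed by at least 2-fold at 195 genes (1.44% of 13501), and replicates of si-Control_t at 319 (2.36%). Across the groups, si-Control_v replicate 2 and si-Control_t replicate 1 were 2-fold apart at only 221 genes (1.64%), fewer than the si-Control_t replicates themselves. The other 3 pairs across groups were farther apart: 532 genes between si-Control_v replicate 2 and si-Control_t replicate 2, 598 between both first replicates, and 761 between si-Control_v replicate 1 and si-Control_t replicate 2. The median absolute difference per gene was 0.16 between replicates of si-Control_v and 0.19 between replicates of si-Control_t. Across the groups it was 0.18 and 0.19 for si-Control_v replicate 2 against si-Control_t replicates 1 and 2, and 0.26 and 0.23 for si-Control_v replicate 1 against the same libraries, the last pair of values being above both replicate pairs. Pearson's r of log2(CPM + 1) across genes, which are not independent replicates, was 0.983 and 0.979 within the groups, 0.981 between the nearest libraries across groups and 0.967 between the farthest.

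**Figure D1:**
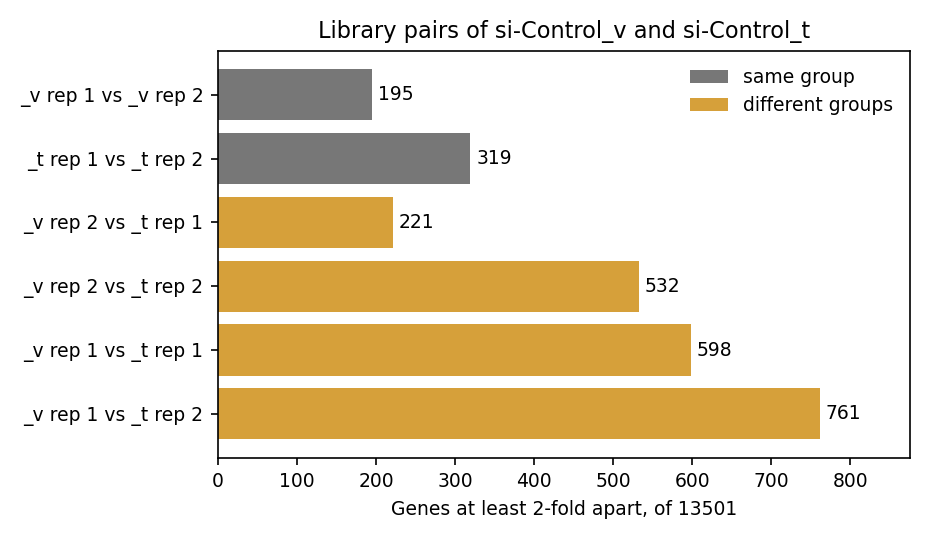
Number of genes at least 2-fold apart on the log2(CPM + 1) scale for each of the 6 pairs among the 4 control libraries (bars start at 0; grey, replicates of a group; gold, libraries of different groups). The pair si-Control_v replicate 2 and si-Control_t replicate 1, with 221 genes, lies between the replicate pairs with 195 and 319.

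In all, 292 of 13501 genes (2.16%) were called, 124 higher (0.918%) and 168 lower (1.24%) in si-Control_t, while 8913 genes (66%) had group means within 1.2-fold. These calls compare means of 2 libraries, so their share is not set against that of single library pairs. Groups did not overlap for 6448 genes (47.8%), 2770 higher (20.5%) and 3678 lower (27.2%), and those shares are the background for the counts of members below. Low genes were called more often: 3.35% of genes with a mean under 5 CPM, 2.26% from 5 to 50 CPM and 1.31% at 50 CPM or above. Genes that passed only through si-Control_v or only through si-Control_t, of which 26 and 9 were called, could not overlap. How many of these were low was not counted, so part of the first share may follow from the filter. The count depended on which library was left out. Leaving out si-Control_v replicate 2 gave 537 calls and leaving out si-Control_t replicate 1 gave 535. Without si-Control_v replicate 1 there were 251, and without si-Control_t replicate 2 there were 312. Of the 292 genes, 98 were called in all 4 of these settings. With a library left out, 1 library is set against 2. No overlap is then easier to meet, so these counts can be set against each other but not against the 292. Without si-Control_t replicate 2 the balance turned, with 172 genes higher and 140 lower.

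**Figure D2:**
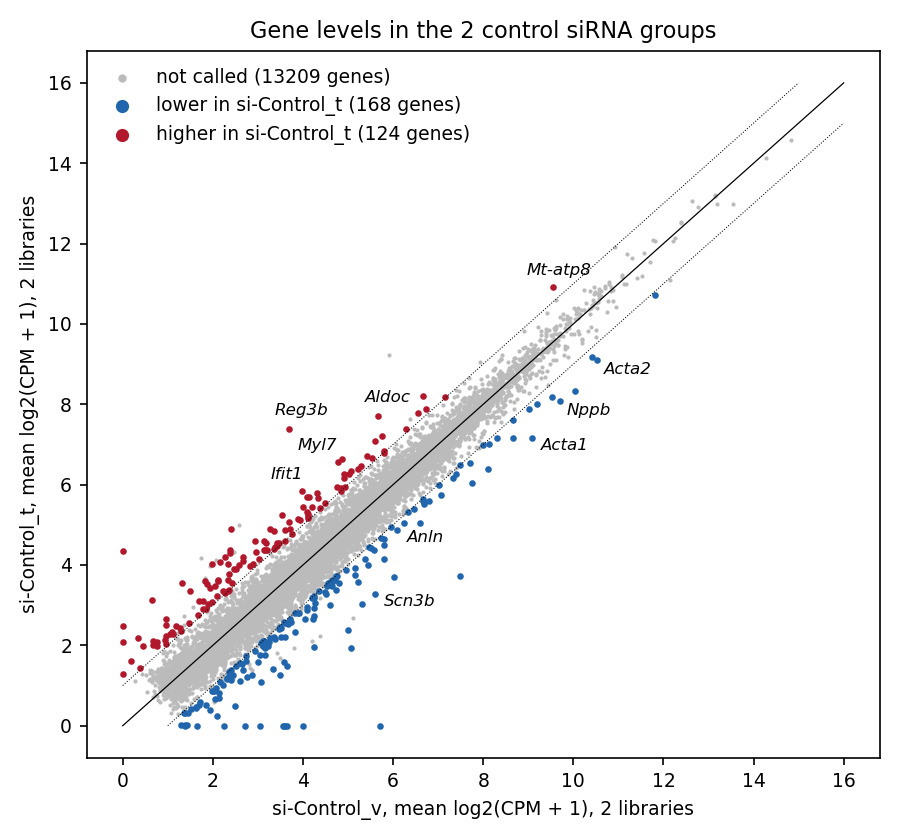
Mean log2(CPM + 1) of the 2 si-Control_v libraries (x axis) against that of the 2 si-Control_t libraries (y axis) for 13501 genes; blue points were called lower in si-Control_t (168) and red points higher (124), the solid line marks equality and the dotted lines 2-fold. Stress and contractile genes such as Nppb, Acta1 and Acta2 lie below the line at high levels, and Reg3b lies farthest above it among the labelled genes.

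Cardiac stress genes had the lowest median of the 29 pathway lists. Of 12 measured natriuretic peptide and stress genes, 6 were called lower and none higher, and the list's median difference was -1.04 against -0.03 for all genes. Nppb, the gene of B-type natriuretic peptide, was at 1157 and 594.2 CPM in the si-Control_v libraries and at 508.9 and 144.1 CPM in the si-Control_t libraries. The groups did not overlap, although si-Control_v replicate 2 was nearer to si-Control_t replicate 1 than to its own replicate on the CPM scale, and the mean was 3.05-fold lower in si-Control_t.

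Acta1 was at 613.4 and 477.6 CPM in si-Control_v and at 271.8 and 74.72 CPM in si-Control_t, 3.77-fold lower, with the last library far below the others. Fhl1 stood at 1314 and 840.2 against 497.4 and 208.4 CPM, 3.26-fold lower. For Xirp2, whose protein sits at intercalated discs, the values were 588.9 and 129.0 against 104.9 and 65.65 CPM. Its second si-Control_v library was close to si-Control_t, so its 3.30-fold difference comes mostly from 1 library.

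Ankrd1, a stretch-induced regulator and the highest of the called stress genes, was at 4461 and 2902 CPM against 1717 and 1676 CPM, 2.12-fold lower, and here the si-Control_t replicates nearly coincided. Rcan1, a calcineurin regulator gene that calcineurin itself induces, was the remaining member called lower, at 282.9 and 229.8 against 180.3 and 88.01 CPM. Nppa, the A-type natriuretic peptide gene and the member with the highest level, was not called: its values were 5431 and 3825 CPM in si-Control_v and 4815 and 988.8 CPM in si-Control_t, which overlap. The list's median shrank to -0.42 without si-Control_t replicate 2, and it was -1.31 at its lowest with another library left out.

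Sarcomere genes as a whole did not share this pattern: the median over 27 members was -0.01, with 3 called lower and 1, Myl7, higher. The lower ones were Acta1, Ankrd1 and Csrp3, a Z-disc stretch sensor at 638.1 and 425.0 against 268.0 and 202.8 CPM. Actc1, the cardiac actin gene and the member with the highest level, was at 13196 and 10885 against 9952 and 6660 CPM, non-overlapping at 1.47-fold. Tnnt2, which encodes cardiac troponin T, was on the other side, at 3255 and 3681 against 4465 and 4321 CPM.

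Some genes of the smooth muscle contractile apparatus were lower in si-Control_t. Among 12 smooth muscle and pericyte markers, 4 were called lower and 1 higher, with a median of -0.18. Acta2, smooth muscle alpha-actin, was at 1550 and 1412 CPM in si-Control_v and at 802.5 and 379.0 CPM in si-Control_t, 2.68-fold lower and without overlap. Tagln, which encodes the actin-binding protein transgelin, was at 898.1 and 604.8 against 359.4 and 233.6 CPM.

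Cnn1, encoding calponin, was at 267.9 and 170.4 against 121.2 and 34.29 CPM, 3.27-fold lower. The smooth muscle myosin gene Myh11 was lower at 26.25 and 22.05 against 11.76 and 8.831 CPM. The member called higher was Abcc9, a subunit of the ATP-sensitive potassium channel that heart muscle also expresses, at 29.55 and 49.14 against 87.83 and 85.79 CPM. In bulk RNA, fewer cells of a type and less RNA per cell cannot be told apart.

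Targets of TGF-beta followed in part. Of 43 genes of TGF-beta signalling and matrix, 5 were called lower and none higher, 17 lay wholly below and 6 wholly above the other group, and the median was -0.14. Ctgf, a matricellular growth factor gene, was at 1527 and 1235 CPM in si-Control_v and at 700.0 and 483.3 CPM in si-Control_t, 2.36-fold lower. The ligand gene Tgfb3 was at 118.3 and 78.63 against 34.07 and 30.36 CPM, the largest difference of the list at -1.56.

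The ligand gene Tgfb2 and the matrix glycoprotein gene Tnc were also called lower, by 1.14 and 1.01 in size. Collagen did not take part to that degree: Col1a1, the member with the highest level, was at 19505 and 20227 against 16923 and 18883 CPM, 1.11-fold lower. The list's median kept within -0.17 to -0.12 when single libraries were left out.

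Proliferation genes differed uniformly. All 38 measured mitosis and cytokinesis genes were lower in si-Control_t and none overlapped, where 27.2% of all genes lay lower without overlap, and the median was -0.80. Only 4 reached 2-fold: Anln, Ect2, Kif20b and Prc1. Anln was at 77.66 and 58.50 CPM in si-Control_v and at 37.21 and 21.41 CPM in si-Control_t, 2.34-fold lower.

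Prc1 was at 115.2 and 87.81 against 61.09 and 39.49 CPM, and Kif20b at 31.69 and 28.18 against 15.78 and 11.77 CPM. Ect2, an activator of the small GTPase RhoA at the cleavage site, was at 58.57 and 46.12 against 33.14 and 18.32 CPM. Top2a, the topoisomerase gene with the highest level of the list, was at 126.4 and 116.8 against 78.93 and 52.72 CPM, 1.87-fold lower. In each of these 5 genes si-Control_t replicate 2 was the lowest library and si-Control_v replicate 1 the highest. Replicates varied in the same genes, since all 38 were higher in replicate 1 than in replicate 2 of si-Control_t, with a median of 0.47, and 34 were in si-Control_v, with a median of 0.20. The list's difference was larger than both and stayed between -1.02 and -0.60 with single libraries left out.

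DNA replication and S phase genes were lower by less: 42 of 43 had a negative difference, 39 did not overlap, 5 were called and the median was -0.58. The called genes were Cdt1, Gins1, Mcm10, Pole and Pole2, which act in loading and starting the replicative helicase or in leading-strand synthesis. Cdt1, the licensing factor, was at 16.51 and 15.58 against 8.375 and 4.846 CPM. Pole was at 23.68 and 20.82 against 10.56 and 9.612 CPM, with close replicates in both groups. On the side of the inhibitors, Cdkn1c, an imprinted inhibitor of cyclin-dependent kinases, was called higher at 13.63 and 26.04 against 47.76 and 61.53 CPM, and Cdkn1b was higher without overlap at 66.54 and 70.52 against 90.57 and 91.23 CPM. The list of 24 inhibitors and p53 targets as a whole had a median of 0.06.

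Sterol synthesis and immediate early genes were also lower in si-Control_t on balance. Of 30 sterol genes 29 were negative, 18 did not overlap and the median was -0.50, yet Hsd17b7 alone was called, at 19.99 and 15.99 against 12.18 and 5.237 CPM. All 30 sterol genes were higher in si-Control_v replicate 1 than in replicate 2, and 26 were higher in si-Control_t replicate 1 than in replicate 2, with medians of 0.38 and 0.64, so the spread between replicates was of the same size as the difference between groups. Immediate early genes, which respond within minutes to serum or stretch, had a median of -0.35, with 17 of 30 wholly below and 3 wholly above and none called. Myc was at 47.70 and 31.93 against 20.59 and 25.14 CPM, while Junb went the other way at 294.1 and 297.9 against 431.3 and 379.6 CPM.

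**Figure D3:**
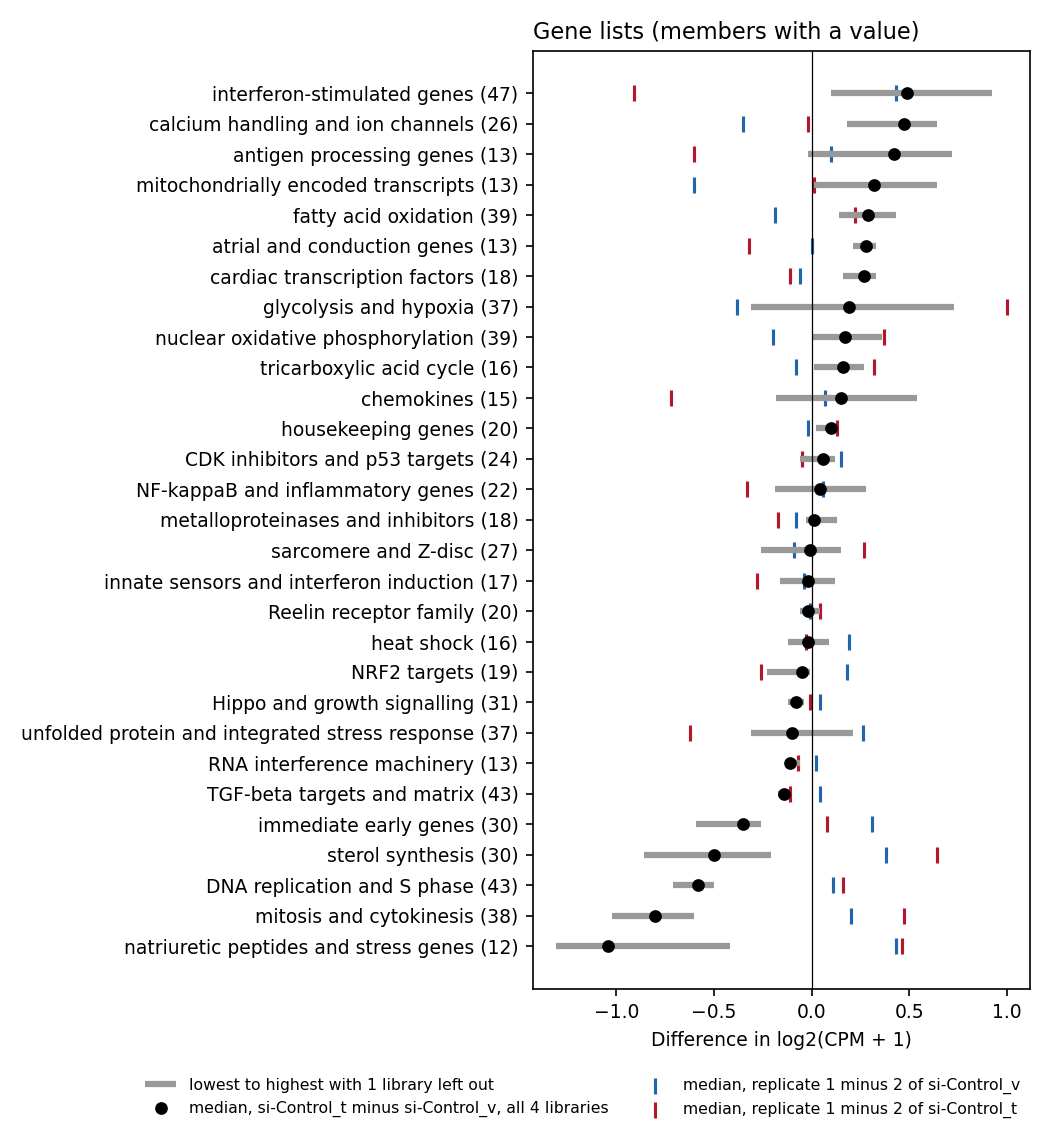
Median difference in log2(CPM + 1), si-Control_t minus si-Control_v, for 29 gene lists with the number of members measured in brackets (black points); grey bars span the values with each of the 4 libraries left out in turn, and coloured ticks give the median difference between replicates of each group. Mitosis and DNA replication genes lie left of 0 with bars that stay there, whereas glycolysis and hypoxia genes have a replicate difference of 1.00 in si-Control_t, beyond their difference of 0.19 between groups.

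Among the genes higher in si-Control_t, Reg3b stood out. It encodes a secreted C-type lectin induced in injured and inflamed tissue, and it was at 12.52 and 11.15 CPM in si-Control_v and at 126.1 and 215.9 CPM in si-Control_t, a difference of 3.70. Both si-Control_t libraries were far above both si-Control_v libraries, and the difference was the largest of the 12 named in this direction. Aldoc, a brain-type aldolase of glycolysis, was at 32.16 and 77.01 against 243.5 and 175.6 CPM.

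The iron-regulating hepcidin gene Hamp was at 2.760 and 5.119 against 25.17 and 11.89 CPM, and Krt19, a keratin of epicardium and other epithelia, at 1.290 and 2.480 against 9.174 and 9.084 CPM. The imprinted gene Mest was at 8.255 and 13.45 against 32.64 and 41.97 CPM. Kbtbd11, Dhrs7c, Ifit1, Myl7, Cacng6, Adra1d and Wbp1 completed the 12, with differences from 1.93 to 1.67. For Wbp1 the si-Control_v replicates were split, at 16.57 and 2.285 CPM, so its call comes from the second.

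Genes of muscle excitation and calcium cycling were higher as a group. Of 26 calcium handling and ion channel genes, 18 lay wholly above si-Control_v, against 20.5% of all genes, 2, Abcc9 and Hrc, were called higher and the median was 0.47. Hrc, which encodes a calcium-binding protein of the sarcoplasmic reticulum, was at 29.67 and 59.27 CPM in si-Control_v and at 101.8 and 105.5 CPM in si-Control_t. Gja1, the gap junction gene for connexin 43, was at 345.1 and 670.7 against 984.5 and 822.4 CPM, 1.87-fold higher.

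Atp2a2, the calcium pump of the sarcoplasmic reticulum and the highest member, was at 1815 and 3048 against 3624 and 3257 CPM, and its regulator Pln at 922.7 and 1563 against 1947 and 1758 CPM. In all 4 of these genes si-Control_v replicate 1 was the lowest library and replicate 2 lay between it and si-Control_t. Without si-Control_v replicate 1 the list's median was 0.18, and without replicate 2 it was 0.64.

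Atrial genes included 2 of the calls. Myl7, the atrial myosin light chain, was at 22.13 and 31.98 CPM in si-Control_v and at 91.62 and 96.02 CPM in si-Control_t, 3.43-fold higher with close replicates in both groups. Sln, encoding the atrial calcium pump inhibitor sarcolipin, was at 3.354 and 2.868 against 8.679 and 11.81 CPM. The pacemaker channel gene Hcn4 was mainly high in si-Control_t replicate 2, at 22.61 and 25.93 against 28.16 and 73.41 CPM. Over 13 atrial and conduction genes the median was 0.28 and 7 lay wholly above. Of 18 cardiac transcription factors, 12 lay wholly above and 4 wholly below with a median of 0.27, none called, among them Prox1 at 18.61 and 30.70 against 36.88 and 38.59 CPM.

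Genes of energy metabolism had smaller differences. Fatty acid oxidation genes were higher in 35 of 39 cases, 22 of them without overlap, with a median of 0.29. Ech1, a peroxisomal and mitochondrial enoyl-CoA isomerase gene, was the member called, at 36.67 and 56.35 against 100.2 and 99.37 CPM. Hadh, the dehydrogenase of the next steps, was at 55.42 and 91.52 against 139.2 and 110.6 CPM. Nuclear oxidative phosphorylation genes had a median of 0.17, with 37 of 39 positive and 9 without overlap, near the 20.5% of all genes, and that median was -0.00 without si-Control_t replicate 1. Their replicates were farther apart than the groups: all 39 were higher in replicate 1 than in replicate 2 of si-Control_t, with a median of 0.37, and none was in si-Control_v, with a median of -0.20.

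Mitochondrially encoded transcripts differed unevenly. Mt-atp8 was called higher, at 637.9 and 885.5 against 1967 and 1912 CPM, and its overlapping neighbour Mt-atp6 was at 633.9 and 973.1 against 1540 and 1527 CPM, so the reads of the 2 genes may not be separable. Mt-co1, the highest, overlapped at 23921 and 35629 against 26621 and 22575 CPM. The mitochondrial share of all CPM was 4.32% and 6.51% in si-Control_v and 5.89% and 5.43% in si-Control_t.

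Interferon-stimulated genes were on in all 4 libraries, and most strongly in si-Control_t replicate 2. Of 47 measured genes, 46 had a positive difference and the median was 0.49, but only 14 lay wholly above si-Control_v, against 20.5% of all genes, and 2 were called, Ifit1 and Isg15. Ifit1, whose protein binds foreign RNA caps, was at 19.41 and 11.30 CPM in si-Control_v and at 32.55 and 96.56 CPM in si-Control_t. Isg15, a ubiquitin-like modifier gene, was at 147.2 and 76.10 against 158.4 and 346.5 CPM.

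Mx1, an antiviral GTPase gene, overlapped at 116.1 and 57.92 against 103.2 and 383.7 CPM. The genes with the printed ISRE promoters did likewise or nearly so: Ifit3 was at 74.71 and 57.49 against 70.34 and 198.8 CPM, Rsad2 at 47.87 and 29.09 against 40.22 and 138.9 CPM, and Oas1a at 61.69 and 38.37 against 67.14 and 135.0 CPM. Every one of the 47 genes was lower in si-Control_t replicate 1 than in replicate 2, by a median of 0.91, which exceeds the 0.49 between the groups, and 17 of them were at least 2-fold apart between those replicates. With si-Control_t replicate 2 left out the list's median was 0.10.

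The neighbouring immune lists showed the same split between the si-Control_t replicates. Antigen processing genes had a median of 0.42, 5 of 13 without overlap and none called, and -0.02 without si-Control_t replicate 2. The immunoproteasome gene Psmb9 was at 31.94 and 31.36 against 34.13 and 66.40 CPM. Among 15 chemokines Cxcl11 was called higher, at 3.431 and 3.211 against 7.958 and 15.25 CPM, while Cxcl10 overlapped at 63.90 and 51.67 against 60.85 and 171.6 CPM. The sensors upstream were not higher: over 17 genes of innate sensing the median was -0.02, and Tlr7, a Toll-like receptor for single-stranded RNA, was at 9.764 and 13.50 against 5.426 and 8.452 CPM.

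**Figure D4:**
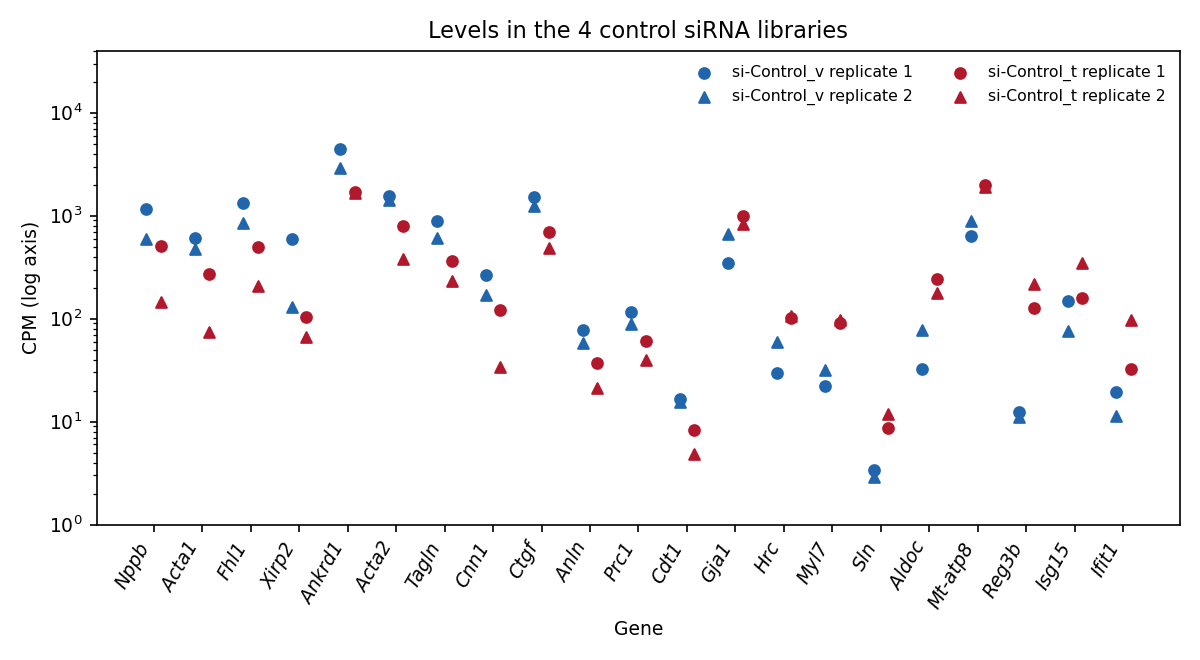
CPM on a log axis of named genes in the 4 control libraries (blue, si-Control_v; red, si-Control_t; circles, replicate 1; triangles, replicate 2). Stress, contractile and cell cycle genes from Nppb to Cdt1 are lower in both si-Control_t libraries, genes from Gja1 to Reg3b are higher in both, and for Isg15 and Ifit1 si-Control_t replicate 2 stands alone.

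None of 20 housekeeping genes was called and their median was 0.10, although 7 lay wholly above and 3 wholly below si-Control_v, and 3 were at least 2-fold apart between the si-Control_t replicates. Eef1a1, a translation elongation factor gene, was at 5597 and 5111 against 6297 and 5693 CPM. Rpl13a, a ribosomal protein gene, lay higher without overlap at 754.6 and 760.7 against 1001 and 916.6 CPM. Among 13 genes of the RNA interference machinery none was called and the median was -0.11, with the Argonaute gene Ago2 at 29.38 and 26.08 against 24.25 and 23.47 CPM.

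Tricarboxylic acid cycle genes had a median of 0.16 with 12 of 16 positive, and metalloproteinases and their inhibitors 0.01 with 9 of 18 positive, none called in either. Hippo and growth signalling genes had a median of -0.08, with Ankrd1 and Ctgf called lower and Igfbp5, a binding protein of insulin-like growth factors, called higher at 13.23 and 20.16 against 27.56 and 50.45 CPM. Inflammatory genes under NF-kappaB had a median of 0.04, and Ptgs2, which encodes the inducible cyclooxygenase, was called lower at 38.31 and 17.57 against 9.545 and 15.33 CPM. Its second si-Control_v library lay close to si-Control_t.

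The knockdown targets themselves are shown here in their untargeted state. Vldlr was at 252.5 and 257.1 CPM in si-Control_v and at 261.3 and 159.4 CPM in si-Control_t, so the groups overlapped and a single library was low. Reln, the gene of the ligand Reelin, was low in all 4 libraries, at 4.115 and 1.406 against 2.859 and 2.400 CPM. Thbs1 was at 1601 and 1322 against 943.5 and 892.1 CPM, 1.59-fold lower in si-Control_t without overlap. Beside this, the si-Thbs1 libraries were at 744.6 and 545.9 CPM, so the Thbs1 level of si-Control_t lay nearer to the knockdown libraries of its table than to si-Control_v of the other. Over 20 genes of the Reelin receptor family the median was -0.02 and none was called; Lrp8, the other Reelin receptor gene, was at 29.65 and 18.26 against 14.13 and 12.82 CPM.

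Markers of cell types were compared by their summed CPM. The defining cardiomyocyte markers Tnnt2, Actc1 and Myh7 were abundant in every library, and the markers of this type summed to 33228 and 35826 CPM in si-Control_v and 36696 and 29271 CPM in si-Control_t. Fibroblast markers reached a similar sum, 35777 and 37917 against 33143 and 38577 CPM, with Col1a1 the highest member. Neither sum separated the groups, and none of the 11 cardiomyocyte or 12 fibroblast markers was called.

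The sum of smooth muscle and pericyte markers did separate, at 4720 and 3836 CPM in si-Control_v and 2932 and 2274 CPM in si-Control_t. Such a sum is weighted toward high members such as Acta2. Of the 12 members, 5 lay wholly below and 1 wholly above. The si-Control_t replicates differed by a median of 0.50, larger in size than the -0.18 between groups, and 3 members were at least 2-fold apart between them. The sum moved with the stress and TGF-beta genes above, and its part in those differences was not tested. Endothelial markers summed to 226.1 and 259.3 against 216.2 and 208.9 CPM and Schwann and neural markers to 39.17 and 32.48 against 20.95 and 22.19 CPM, both sums also without overlap. Single endothelial markers did not separate: 1 of 11 lay wholly below, where 27.2% of all genes did. Their replicate medians of -0.44 in si-Control_v and 0.54 in si-Control_t exceeded in size the -0.22 between groups. Tubb3, given below, was a large part of the Schwann and neural sum. Epicardial and mesothelial markers summed to 287.2 and 322.7 against 315.9 and 399.6 CPM. Macrophage markers summed to 641.4 and 1072 against 717.7 and 683.4 CPM, with si-Control_v replicate 2 high and Cd163 at 0 throughout. Lymphocyte markers were near 0: Cd3d, Cd79b, Ms4a1, Nkg7 and Gzmb were listed at 0 in all 4 libraries, and Cd4, which rat macrophages also express, was the only one to pass the filter, at 12.02 and 17.96 against 10.88 and 10.66 CPM. Single members of these lists were called: the complement gene C1qa and Krt19 higher, and the neuronal tubulin gene Tubb3 lower, at 22.75 and 16.79 against 9.219 and 9.233 CPM. C1qa, at 3.044 and 4.834 against 12.08 and 6.534 CPM, went against the other macrophage markers, since 8 of the 9 measured had a negative difference.

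Tests were possible within each table and place the control groups among their own neighbours. These limma fits on log2(CPM + 1) with Benjamini-Hochberg adjustment share the control libraries with the comparison above, so their values are set side by side only, and their p-values rest on the variation of 2 libraries per group, possibly only technical. Against PBS, si-Control_v had 240 of 13815 genes called higher (1.74%) and 150 called lower (1.09%), in cultures that also differed in time. All 48 interferon-stimulated genes had a positive value, with a median of 2.29, and 43 were called higher. Among those called were Irf7, the interferon-induced regulator of interferon genes, by 5.11 (SE 0.21, limma adjusted p = 4.841e-06) and Ifit3 by 4.69 (SE 0.21, limma adjusted p = 5.84e-06). The 0.49 between the control groups is thus small beside the step from cells without siRNA, as the median list level shows: 3.16 and 3.44 with PBS, 6.08 and 5.59 in si-Control_v, 5.95 and 6.78 in si-Control_t on the log2 scale.

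The same fit gave lower levels of some smooth muscle contractile and TGF-beta genes in si-Control_v than in PBS. Sarcomere genes went the other way, with 22 of 27 positive, 2 called higher and none lower. Acta2 fell by 0.80 (SE 0.13, limma adjusted p = 0.01386), Tgfb3 fell by 1.3 (SE 0.17, limma adjusted p = 0.002798) and Ctgf fell by 0.80 (SE 0.13, limma adjusted p = 0.01184). Of 43 TGF-beta and matrix genes, 35 had a negative value, 11 were called lower and 2 were called higher. Tgfb3 was at 252.0 and 226.7 CPM with PBS, above all 4 control siRNA libraries. Stress genes did not share this, as none of 12 was called and their median was 0.01. For Nppb, PBS libraries were at 1056 and 1015 CPM, within the range of si-Control_v. Nor were mitosis genes called, 0 of 38 with a median of 0.22.

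The knockdown contrasts, fitted without the replicate number, gave few calls. Against si-Control_v, si-Vldlr had 3 genes higher (0.0217% of 13815) and 2 lower (0.0145%), with 1633 at an unadjusted p under 0.05. The higher genes were LOC100910669, Nefm, a neurofilament gene, and Olr1, a scavenger receptor for oxidised lipoprotein, and the lower ones Abhd10 and LOC103694902. Vldlr itself was not called in this fit. Against si-Control_t, si-Thbs1 had 4 higher (0.0298% of 13416) and 2 lower (0.0149%), with 741 at an unadjusted p under 0.05. Those higher were AABR07035375.1, Ebna1bp2, LOC100911917 and Rpl35al1, and those lower LOC100910833 and Rbm12. Thbs1 itself was not among the called genes. LOC100911917 was absent from both si-Control_t libraries and so passed the filter only through si-Thbs1. The value of Rpl35al1 is uncertain, as described below. None of the 38 mitosis genes and none of the interferon-stimulated genes was called in either fit. At an unadjusted limma p under 0.05 were 37 of 38 mitosis and 45 of 47 interferon-stimulated genes for si-Thbs1. For si-Vldlr the counts were 22 of 38 and 26 of 48. Genes of a list are not independent of each other. Their signs are given beside the levels: all 38 mitosis genes had a positive value in si-Thbs1 against si-Control_t, with a median of 0.92, and a negative one in si-Vldlr against si-Control_v, with a median of -0.33. Prc1 was at 119.0 and 89.59 CPM in si-Thbs1, within or near the si-Control_v range of 87.81 to 115.2 and above the si-Control_t values.

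Interferon-stimulated genes had negative values in 47 of 47 cases for si-Thbs1 against si-Control_t, with a median of -1.21, and positive ones in 47 of 48 for si-Vldlr against si-Control_v, with a median of 0.51. For Isg15 the si-Thbs1 libraries were at 56.62 and 33.45 CPM and the si-Vldlr libraries at 185.5 and 210.1 CPM, and its value against si-Control_t was -2.40 (SE 0.42, limma adjusted p = 0.4711). Some differences between the control groups were also seen between the tables' knockdown libraries: Myl7 was at 99.81 and 88.35 CPM in si-Thbs1 and at 21.00 and 21.10 CPM in si-Vldlr, and Reg3b at 65.90 and 130.9 CPM against 20.55 and 22.91 CPM. Others were not, since Acta2 was at 1388 and 340.0 CPM in si-Thbs1, from near the level of si-Control_v to below that of si-Control_t, and Nppb at 1340 and 188.9 CPM.

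**Figure D5:**
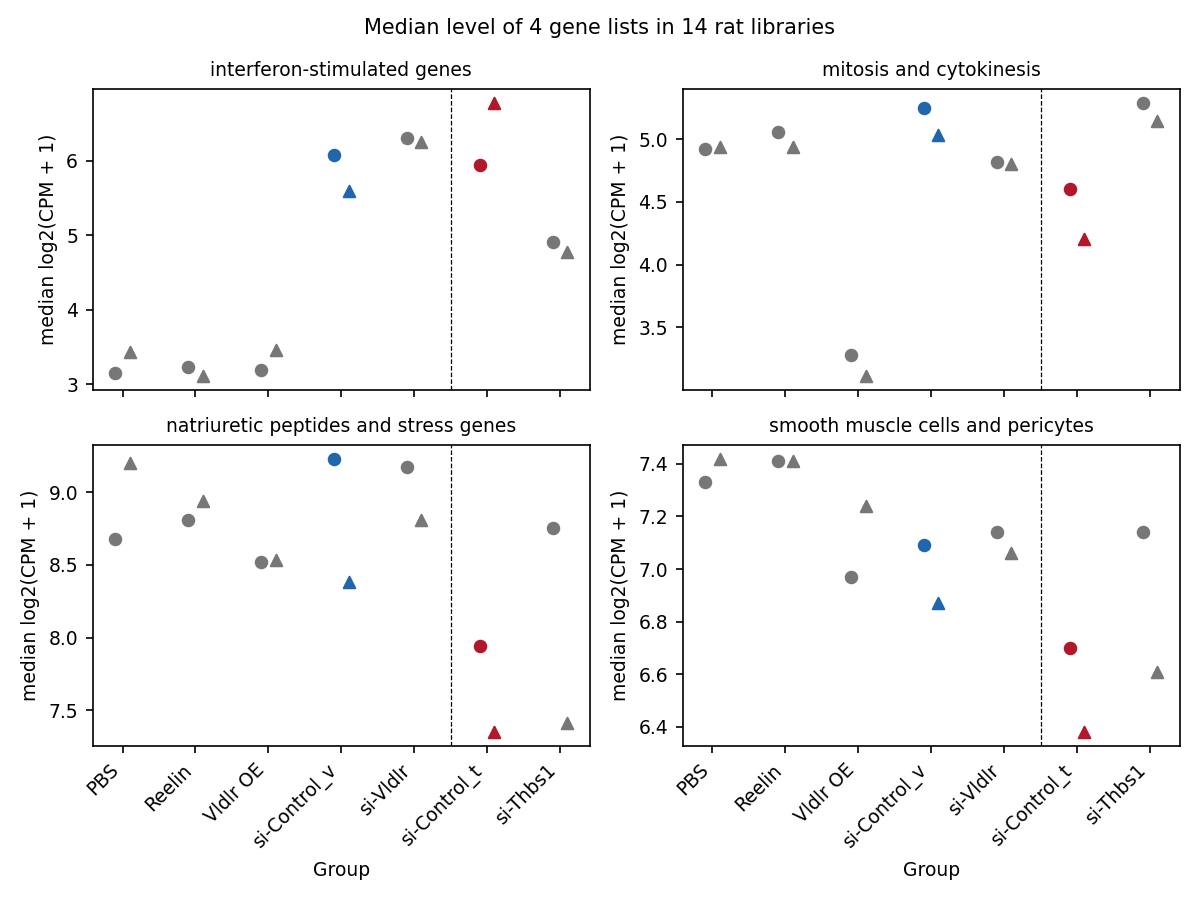
Median log2(CPM + 1) of 4 gene lists in the 14 labelled rat libraries, by group (circles, replicate 1; triangles, replicate 2; blue, si-Control_v; red, si-Control_t; grey, other groups; the dashed line separates the 2 deposited tables). Interferon-stimulated genes lie above 4.7 in every siRNA library and below 3.5 in the PBS, Reelin and Vldlr OE libraries. For mitosis genes the si-Thbs1 libraries, at 5.29 and 5.14, lie with si-Control_v at 5.25 and 5.03. They do not lie with si-Control_t, at 4.60 and 4.20.

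Some calls rested on genes listed at exactly 0. A 0 occurred in at least 1 library for 34 of the 292 called genes, and 258 calls had none, 114 higher and 144 lower. The predicted gene LOC100911837 was listed at 0 in both si-Control_v libraries and at 18.21 and 20.83 CPM in si-Control_t. In the other direction 7 genes were listed at 0 in both si-Control_t libraries, the highest being LOC103694872 at 38.45 and 68.45 CPM, AABR07006025.1 at 14.96 and 15.16 CPM and LOC100911917 at 10.74 and 11.47 CPM in si-Control_v. Such genes also went on and off between replicates elsewhere: LOC103694872 was at 99.76 and 0 CPM in si-Thbs1, and Hnrnpab, an RNA-binding protein gene, was at 178.5 and 178.4 CPM in si-Control_v but at 174.6 and 0 CPM in si-Control_t.

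Rpl35al1, called lower at 24.51 and 42.42 against 3.518 and 2.262 CPM, is a ribosomal protein gene with near-identical copies, and its value is uncertain because reads can be split among them. In the same tables it was at 54.83 and 59.20 CPM in si-Thbs1 and at 7.571 and 5.707 CPM in si-Vldlr. Called genes with predicted or clone identifiers numbered 64 of 292, a larger share than the 1503 of all 13501 genes compared. The named genes with the largest lower values besides the stress genes were Scn3b, a sodium channel subunit gene at 83.35 and 26.60 against 12.80 and 5.799 CPM, Srm, Myh3, F2rl1, Rnd1 and Vps25. Srm, which encodes spermidine synthase, was low in a single library, at 39.27 and 38.26 against 1.002 and 32.04 CPM.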

How the data were processed

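RNA from cultured rat ventricular cardiomyocytes was sequenced, and the authors deposited the values as CPM, counts scaled to 1000000 per library, in 2 tables. Per the submitters' processing notes the tools were HISAT2 2.1.0, StringTie 1.3.4 and edgeR 3.20.9 with build rn6 for rat; their roles and settings are not given in the sources used here. Each column was assigned through its table and its name, and 2 columns with no matching label were set aside. Of 28909 rows in each table, 4 with repeated date-like names were dropped. The deposited CPM are multiples of a fixed step in 98.01% to 98.09% of values per library, with 77530499 to 88838744 steps, but a step need not be a read, so sequencing depth in fragments is unknown.

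Values were analysed as log2(CPM + 1) for genes with a CPM of at least 1 in 2 of 4 libraries. Between the control groups no test was run: a gene was called when the groups did not overlap and differed by at least 1. Within tables, limma 3.58.1 (R 4.3.3) was fitted with an intensity trend and 1 mean per group, over all 10 labelled libraries of the larger table and the 4 of the smaller, after a filter of CPM of at least 1 in 2 libraries; calls are at a Benjamini-Hochberg adjusted p under 0.05. On simulated data with 200 changed genes, 4-fold changes were recovered in 100%, 97% and 63% of cases and 2-fold changes in 80%, 89% and 25% for si-Vldlr, si-Control_v against PBS and si-Thbs1. Tables were read with pandas 2.3.3.

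The 38 gene lists (29 pathways, 9 cell type marker lists), the members and the rules were chosen with earlier results of these data known. Named genes were the 12 largest called differences in each direction with a mean of at least 5 CPM and no 0, up to 6 members per list by difference in the direction of its median plus its highest member, the 4 largest replicate differences per group, and the knockdown targets with Reln. Printed members outside that rule were chosen after their values were seen: Oas1a and Ifit3, for their promoters, Irf7 and Rcan1, and, under other observations, Bnip3, Vegfa and Hspa5. Some genes that the rule names are not reported here. Alternatives covered the pseudocount, filter, scaling, fold limit, single libraries, replicate block and fit.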

Additional observations from a re-analysis of the deposited data

How the results depend on the processing

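Of 229 named genes, 2874 of 2944 values under the alternatives counted as unchanged, 62 fell short of the call and 8 moved. A called gene counted as unchanged when it was still called in the same direction, and none reversed. An uncalled gene counted as unchanged when it shifted by less than the spread between its replicates, and its direction was not checked. Leaving out 1 library cannot shift a difference by more than that spread, so for uncalled genes those settings could not show a change. Of 36 lists, 428 of 466 values stayed within the spread between replicates. The count of 292 calls became 114 with a pseudocount of 5, 1113 at 1.5-fold and 28 at 4-fold. With single libraries left out, where no overlap is easier to meet, it ranged from 251 to 537. Median-ratio scaling gave 278, with 48.2% higher against 42.5%. With a pseudocount of 5 replicate differences numbered 83 (si-Control_v) and 171 (si-Control_t), and list medians were -0.49 (DNA replication) and 0.27 (atrial). Without a filter the atrial median was 0.21. Median-ratio scaling gave 0.32 (atrial), -0.01 (NRF2 targets) and -0.07 (RNA interference).

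With single libraries left out, medians ranged from -0.71 to -0.50 (DNA replication), 0.18 to 0.64 (calcium handling), 0.21 to 0.33 (atrial), 0.14 to 0.43 (fatty acid oxidation), -0.23 to -0.01 (NRF2 targets), -0.12 to -0.06 (RNA interference), -0.02 to 0.29 (cardiomyocytes), -0.04 to 0.21 (fibroblasts), -0.06 to 0.12 (CDK inhibitors), -0.40 to -0.22 (smooth muscle), -0.03 to 0.13 (metalloproteinases), -0.00 to 0.36 (oxidative phosphorylation), -0.02 to 0.72 (antigen processing), -1.31 to -0.42 (stress genes) and -0.31 to 0.73 (glycolysis and hypoxia). Medians at least as large as the spread between replicates changed sign in 3 cases: -0.02 for cardiomyocytes without si-Control_v replicate 1, -0.00 for oxidative phosphorylation without si-Control_t replicate 1 and -0.02 for antigen processing without si-Control_t replicate 2. Smaller medians also changed sign, among them chemokines (-0.18 to 0.54), NF-kappaB genes (-0.19 to 0.28) and the unfolded protein response (-0.31 to 0.21). The cause was not tested.

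limma calls without a filter numbered 1 for si-Vldlr and 0 for si-Thbs1, and in fits of the 2 groups alone 8 for si-Vldlr and 219 for si-Control_v against PBS. With single libraries left out they ranged from 6 to 136 (si-Vldlr), 149 to 593 (si-Control_v against PBS) and 14 to 185 (si-Thbs1), where the lone sample is assumed to vary like the other groups. The highest were without si-Control_v replicate 1 (136 and 593) and without si-Control_t replicate 1 (185). With the replicate number as a block, calls numbered 4, 332 and 43; same-numbered libraries had correlated deviations of 0.16, -0.03 and 0.41 over 2 pairs, and neither the labels nor 2 pairs settle whether a number marks a shared culture. Unknown depth limits what can be said of genes near 1 CPM.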

Other observations

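A gene group not described above differed more between replicates than between groups. Of 37 glycolysis and hypoxia genes, 33 were higher in si-Control_t replicate 1 than in replicate 2, by a median of 1.00. Of these 37 genes, 18 were at least 2-fold apart between those replicates, where 2.36% of all genes were. In si-Control_v only 6 were higher in replicate 1 than in replicate 2, with a median of -0.38. Between groups the list's median was 0.19, with Aldoc and the muscle phosphoglycerate mutase gene Pgam2 called higher in si-Control_t. Pdk1, the kinase that holds pyruvate back from mitochondria, was at 159.0 and 35.15 CPM in the si-Control_t libraries and at 41.69 and 76.31 CPM in si-Control_v. Bnip3, a hypoxia-induced mitophagy receptor gene, was at 397.9 and 80.92 against 108.8 and 181.4 CPM. Ldha, the lactate dehydrogenase subunit gene, was at 2748 and 1265 against 1406 and 1640 CPM, and Vegfa at 733.6 and 341.9 against 480.7 and 625.2 CPM. In the same table si-Thbs1 replicates 1 and 2 were at 415.1 and 90.81 CPM for Bnip3 and at 162.1 and 45.57 CPM for Pdk1. The list's median levels were 8.13 and 7.14 on the log2 scale in si-Control_t, 8.23 and 7.04 in si-Thbs1, and 7.32 and 7.65 in si-Control_v. Among housekeeping genes, the glycolytic Pgk1 was split the same way, at 1651 and 507.9 CPM in si-Control_t.

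Genes of the unfolded protein and integrated stress responses lay the other way. Of 37, 1 was higher in si-Control_t replicate 1 than in replicate 2, with a median of -0.62, while 35 were higher in si-Control_v replicate 1 than in its replicate 2, with a median of 0.26. Hspa5, the chaperone BiP, was at 766.5 and 1376 CPM in si-Control_t and at 1021 and 841.0 CPM in si-Control_v, and the amino acid transporter gene Slc7a5 was at 120.8 and 211.8 against 322.9 and 209.1 CPM. Between groups the list's median was -0.10. Heat shock genes had a median of -0.02 and NRF2 targets -0.05, none called in either list, and Cryab, a small heat shock protein of muscle, was at 882.6 and 906.1 CPM in si-Control_v and at 714.4 and 625.4 CPM in si-Control_t.

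Some of the large splits between replicates were in genes with predicted or merged identifiers, but Hnrnpab, described above, and Sccpdh carry ordinary symbols. NEWGENE_621351 was at 3561 and 0 CPM in si-Control_v and at 2886 and 121.9 CPM in si-Control_t. LOC100912282 was at 0 and 64.38 against 79.14 and 0 CPM, and Sccpdh at 0 and 36.59 against 30.49 and 0 CPM. Among the erythroid markers 2 passed the filter, with a median of -0.08, and Tfrc, the transferrin receptor gene that dividing cells also express, was at 213.5 and 193.8 against 244.4 and 59.75 CPM.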
